A study of Mus musculus with 26 samples.

Results

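The genes described here are 10 markers of cell adhesion and of the transition between epithelial and mesenchymal cell states, chosen by name from 54589 genes that appear in at least 1 of 3 tables of gene values. They are the epithelial adhesion genes Cdh1 and Epcam, the mesenchymal structural genes Cdh2, Vim and Fn1, and the transcription factors Snai1, Snai2, Zeb1, Zeb2 and Twist1. They were chosen by name, with earlier results of these data known. All 10 are in the table of the Tex10 depletion experiment and in that of the overexpression experiment, and 9 are in the testis table, where Cdh1 was not analysed here. The question put to them is whether loss of Tex10 moves cells toward a mesenchymal state while germ cell fate is being induced.

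The study measured RNA by sequencing in 26 mouse samples, to examine Tex10, a nuclear protein, in germ cell specification in culture and in the testis. The depletion experiment used 129Sv/J cells: untreated epiblast-like cells (EpiLCs, the in vitro counterpart of the formative epiblast), and primordial germ cell-like cells (PGCLCs, the germ cell precursors induced from EpiLCs) at day 2 and day 4, each treated with the solvent DMSO or with 500 nM dTAG13, a small molecule that directs tagged proteins to degradation. Each of these 5 groups had 2 libraries. The overexpression experiment used untreated 129Sv/J cells: a single line carrying the empty vector, and 2 clones that overexpress Tex10. Each line gave 1 library at the EpiLC stage and 1 at each of days 2, 4 and 6 of PGCLC induction, so every control value there is 1 library of 1 line. The testis experiment compared untreated testis cells of C57BL/6N mice, 2 samples from wildtype and 2 from Tex10 conditional knockout; the Cre driver, the age of the mice and the tagged Tex10 allele are not given in the sources used here. The labels do not say whether replicates came from separate cultures, so p-values measure the spread between these libraries, which may be technical.

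Cadherins join neighbouring cells through like-to-like binding at adherens junctions. In an epithelial to mesenchymal transition, as in gastrulation, the E-cadherin gene Cdh1 is repressed by zinc finger factors of the Snail (Snai1, Snai2) and Zeb (Zeb1, Zeb2) families, which bind E-box motifs, while N-cadherin (Cdh2), the intermediate filament protein vimentin (Vim) and the matrix protein fibronectin (Fn1) are typically gained. Twist1, a basic helix-loop-helix factor, also drives the transition in many settings, and Epcam encodes an adhesion molecule of epithelial and pluripotent cells. Epiblast cells and primordial germ cells both carry E-cadherin, so Cdh1 is usually high throughout the differentiation studied here.

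The E-box bound by Snail and Zeb factors reads CAGGTG, which is CACCTG on the opposite strand. RefSeq promoter windows (build GRCm38.p6) were matched for 5 of the 10 genes: Epcam, Vim, Snai1, Zeb2 and Twist1. Windows of Cdh1, Cdh2, Snai2, Zeb1 and Fn1 were not used here. In the 250 bases before the start, the motif was found on either strand in Epcam, at 187 and 19 bases before the start, and in Snai1, at 126 bases before the start, and it was not in those windows of Vim, Zeb2 (4 windows) or Twist1. Of 32851 promoter windows of that length, 17.2% held the motif at least once and 2.06% held it 2 or more times; a match describes letters and not a bound site. The Epcam and Snai1 windows are shown because they carry the motif in members that gave different results under dTAG13: Epcam at chr17:87635729-87635978 and Snai1 at chr2:167537945-167538194, both on the plus strand and ending at the base before the start. Both are written 5′ to 3′ with the motif in capitals.
Epcam: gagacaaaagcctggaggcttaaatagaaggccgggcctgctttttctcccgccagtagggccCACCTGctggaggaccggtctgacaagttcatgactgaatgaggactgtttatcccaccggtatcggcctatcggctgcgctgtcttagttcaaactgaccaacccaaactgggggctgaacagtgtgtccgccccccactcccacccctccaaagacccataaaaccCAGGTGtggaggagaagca
Snai1: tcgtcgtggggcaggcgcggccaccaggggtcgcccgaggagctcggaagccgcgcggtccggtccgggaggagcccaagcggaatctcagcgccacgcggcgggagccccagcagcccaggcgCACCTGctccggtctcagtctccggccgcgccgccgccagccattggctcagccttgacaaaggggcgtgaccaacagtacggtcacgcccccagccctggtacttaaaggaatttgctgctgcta

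Values are the signal the authors deposited with TMM scaling between the libraries of a table. Libraries held 5055362 to 8564563 reads assigned to genes in the depletion experiment, 5227287 to 7484600 in the overexpression experiment and 6058987 to 7272313 in the testis experiment. A count of 3 reads, the limit that a count of 0 allows, corresponded to values of 0.299 to 0.477, 0.412 to 0.560 and 0.381 to 0.514 in these experiments, covering counting error only. Log2 fold changes below are differences of log2(value + 1), which understates the change of low genes, given ± the standard error from limma. A gene was called where its limma p-value was under 0.05 after Benjamini-Hochberg adjustment across every gene that entered the comparison. The Tex10 transcript was 94.0 and 104 with dTAG13 against 106 and 113 with DMSO at day 2, and 72.8 and 76.8 against 105 and 110 at day 4; dTAG13 acts on protein, so these values do not check the depletion.

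Per kilobase of exon, the depletion experiment ran from Cdh1, with a mean over 10 libraries of 145, through Fn1 at 40.7, Epcam at 39.0 and Vim at 13.3, down to Zeb1 at 1.73, Snai1 at 1.13, Twist1 at 0.920, Cdh2 at 0.579, Snai2 at 0.481 and Zeb2 at 0.278. This order is of means over all 5 groups and did not hold within each group. In EpiLCs Snai1 (1.86) and Cdh2 (1.80) were above Zeb1 (1.18), and with dTAG13 at day 2 Epcam (36.7) was above Fn1 (22.1). Cdh1, Fn1, Epcam and Vim had 300 reads or more in every library, and Snai1, Snai2 and Twist1 had at most 30. Snai2 had a mean value of 0.972 and did not reach the minimum mean of 1 for testing, which leaves 9 of 10 members tested in that table.

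Under dTAG13 these genes changed in both directions. Cdh1 was higher and Fn1 lower with dTAG13 on both days, Snai1 was higher on both days, and Zeb1 was lower on both days. At day 2, 6 of 9 tested members were called, 3 higher (Cdh1, Cdh2 and Snai1) and 3 lower (Fn1, Zeb1 and Zeb2), while 33.6% of all 16605 tested genes passed (13.7% up, 19.9% down). At day 4, again 6 of 9 were called, 3 higher (Cdh1, Vim and Snai1) and 3 lower (Epcam, Fn1 and Zeb1), beside 41.8% of all genes (15.8% higher and 26% lower). The values of each gene follow by role.

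**Figure D1:**
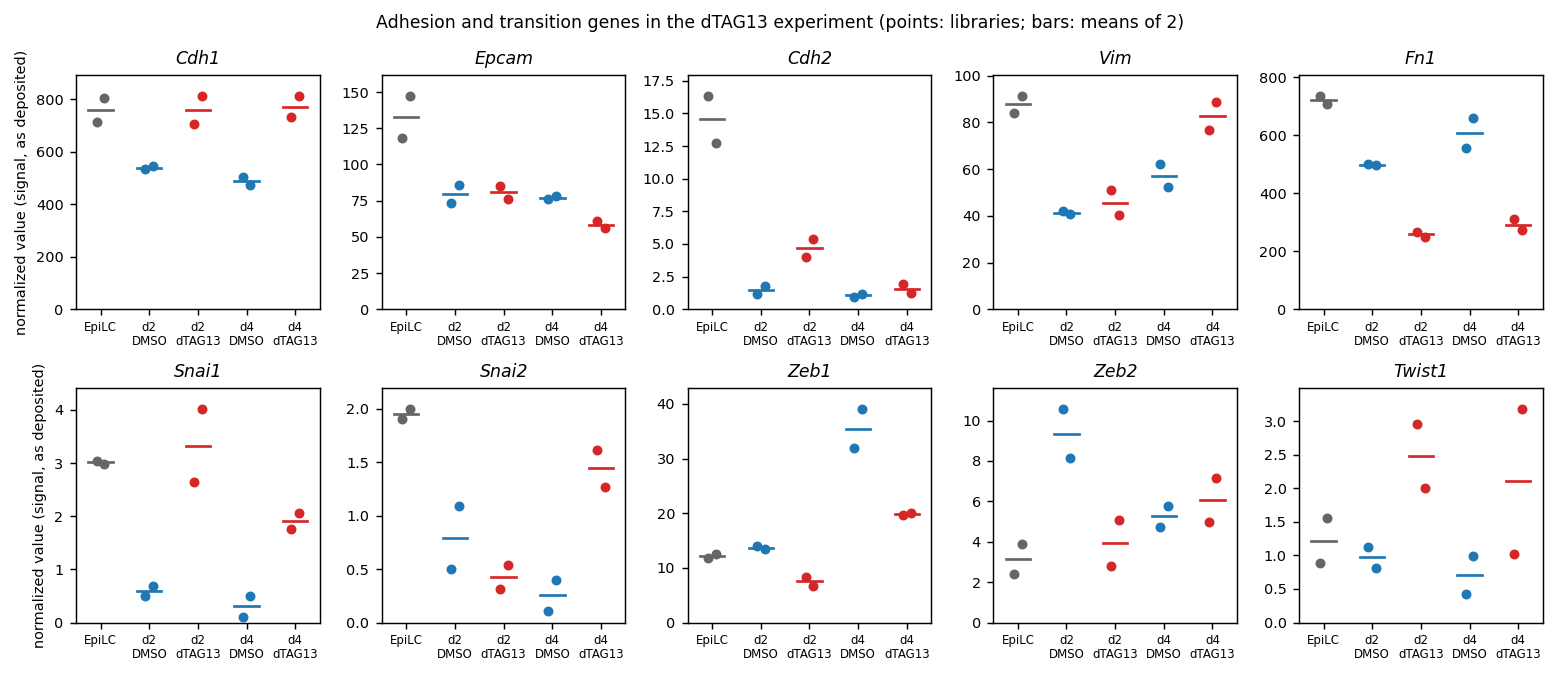
Normalized values (vertical axes, linear from 0, a separate scale for each gene) of the 10 genes in the 5 groups of the depletion experiment, with each library as a point and the mean of 2 libraries as a bar; d2 and d4 are day 2 and day 4. Cdh1 and Fn1 with dTAG13 lie clear of DMSO in opposite directions on both days, and Zeb2 separates at day 2 only.

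Cdh1 encodes E-cadherin (chr8:106603351-106670246, plus strand, GRCm38). Its values were 713 and 805 in EpiLCs, 535 and 544 with DMSO at day 2, 707 and 811 with dTAG13 at day 2, 503 and 473 with DMSO at day 4, and 731 and 813 with dTAG13 at day 4. The dTAG13 libraries of both days overlapped the EpiLC range, and all 4 DMSO libraries lay below it. The difference between dTAG13 and DMSO was 0.49 ± 0.11 at day 2 (limma adjusted p = 0.00120) and 0.66 ± 0.11 at day 4 (limma adjusted p = 3.36e-05). In the authors' deposited table the Cdh1 rise had a log2 fold change of 0.49 with an FDR of 0.343 at day 2, and 0.66 with an FDR of 0.0666 at day 4, so the size is close and the call differs. That table has 4 of the 10 members with an FDR under 0.05 on each day: Cdh2, Snai1, Zeb1 and Zeb2 at day 2, and Fn1, Snai1, Snai2 and Zeb1 at day 4. Of all 53978 genes given an FDR there, 5.49% were under 0.05 at day 2 and 7.98% at day 4, and of the 16605 with a mean of at least 1, 16.1% and 24.3%.

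Epcam, the other epithelial adhesion gene (chr17:87635979-87651129, plus strand), did not follow Cdh1. It stood at 118 and 147 in EpiLCs, at 73.2 and 85.8 with DMSO and 85.2 and 76.1 with dTAG13 at day 2, and at 76.0 and 78.1 with DMSO and 61.2 and 55.8 with dTAG13 at day 4. The day 2 groups overlapped, and at day 4 both dTAG13 libraries were the lowest of the experiment. The difference was 0.02 ± 0.13 at day 2 (95% interval -0.24 to 0.28) and -0.39 ± 0.13 at day 4 (limma adjusted p = 0.0152). The day 4 call was lost under 6 of the other settings and without dTAG13 replicate 2, with adjusted p between 0.0142 and 0.154 over all 14 alternatives. In the authors' deposited table Epcam at day 4 had a log2 fold change of -0.40 with an FDR of 0.552.

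Cdh2 encodes N-cadherin (chr18:16588877-16809246, minus strand). Its values were 16.4 and 12.7 in EpiLCs, 1.13 and 1.76 with DMSO and 4.04 and 5.35 with dTAG13 at day 2, and 0.967 and 1.19 with DMSO and 1.91 and 1.27 with dTAG13 at day 4. The day 2 dTAG13 libraries stood between the EpiLCs and the DMSO libraries, and by day 4 the gene rested on 8 to 13 reads per library in both groups. The difference was 1.22 ± 0.29 at day 2 (limma adjusted p = 0.00282) and 0.31 ± 0.29 at day 4 (adjusted p = 0.431; 95% interval -0.31 to 0.92).

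The ratio of Cdh1 to Cdh2 per kilobase of exon gives both cadherins in a single value. It was 76.9 and 111 in EpiLCs, 834 and 544 with DMSO at day 2, 309 and 267 with dTAG13 at day 2, 917 and 698 with DMSO at day 4, and 677 and 1128 with dTAG13 at day 4. In every library Cdh1 was far above Cdh2, the 2 day 2 dTAG13 libraries lay between the EpiLCs and the DMSO libraries, and the day 4 groups overlapped.

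Vim encodes vimentin (chr2:13573927-13582826, plus strand). It was 84.0 and 91.4 in EpiLCs, 41.9 and 40.7 with DMSO and 51.1 and 40.3 with dTAG13 at day 2, and 62.2 and 52.3 with DMSO and 76.8 and 88.7 with dTAG13 at day 4. The day 2 groups overlapped, and the day 4 dTAG13 libraries were above both DMSO libraries and overlapped the EpiLCs. The difference was 0.13 ± 0.14 at day 2 (adjusted p = 0.482) and 0.53 ± 0.14 at day 4 (limma adjusted p = 0.00335). Without day 4 dTAG13 replicate 2 the Vim difference was 0.42 and its adjusted p was 0.0616, the highest of 14 alternatives, whose lowest was 1.56e-04. The authors' deposited table gave Vim at day 4 a log2 fold change of 0.53 with an FDR of 0.122.

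Fn1 encodes fibronectin (chr1:71585520-71653200, minus strand) and moved opposite to the direction a mesenchymal shift is known for. It was 737 and 708 in EpiLCs, 502 and 497 with DMSO and 267 and 250 with dTAG13 at day 2, and 556 and 660 with DMSO and 312 and 272 with dTAG13 at day 4. All 4 dTAG13 libraries were below every other library of the experiment. The difference was -0.95 ± 0.11 at day 2 (limma adjusted p = 6.01e-07) and -1.05 ± 0.11 at day 4 (limma adjusted p = 6.39e-08), and it was called under every alternative of both comparisons. In the authors' deposited table Fn1 had a log2 fold change of -0.95 with an FDR of 0.0998 at day 2 and -1.06 with an FDR of 0.0360 at day 4.

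Snai1 encodes the Snail repressor (chr2:167538195-167542814, plus strand). It was 3.04 and 2.99 in EpiLCs, 0.503 and 0.679 with DMSO and 2.64 and 4.01 with dTAG13 at day 2, and 0.107 and 0.498 with DMSO and 1.76 and 2.07 with dTAG13 at day 4. These values rest on 1 to 5 reads in a DMSO library and 12 to 30 reads in a dTAG13 library. The dTAG13 libraries lay above DMSO on both days without overlap, and at day 2 they spanned the EpiLC values. The difference was 1.43 ± 0.31 at day 2 (limma adjusted p = 0.00127) and 1.18 ± 0.31 at day 4 (limma adjusted p = 0.00450). Without day 4 DMSO replicate 1 the Snai1 difference at day 4 was 0.96 with an adjusted p of 0.0576, and over 13 alternatives that p ranged from 0.00231 to 0.0576.

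Snai2 encodes Slug, the second Snail-family repressor (chr16:14705852-14709385, plus strand). It was 1.901 and 1.99 in EpiLCs, 0.503 and 1.09 with DMSO and 0.311 and 0.535 with dTAG13 at day 2, and 0.107 and 0.398 with DMSO and 1.61 and 1.27 with dTAG13 at day 4. The groups overlapped at day 2 and were apart at day 4, where Snai2 had 1 and 4 reads with DMSO and 11 and 8 with dTAG13. With no filter on low values, the Snai2 difference was -0.32 ± 0.30 at day 2 (limma adjusted p = 0.593) and 0.97 ± 0.30 at day 4 (limma adjusted p = 0.0551). The authors' deposited table gave Snai2 an FDR of 0.0123 at day 4.

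Zeb1 encodes a zinc finger E-box binding repressor (chr18:5591860-5775467, plus strand). It was 11.8 and 12.5 in EpiLCs, 13.96 and 13.4 with DMSO and 8.39 and 6.69 with dTAG13 at day 2, and 31.9 and 39.0 with DMSO and 19.7 and 20.02 with dTAG13 at day 4. The level climbed from day 2 to day 4 under both treatments, and on each day dTAG13 was below DMSO without overlap. The difference was -0.79 ± 0.19 at day 2 (limma adjusted p = 0.00247) and -0.80 ± 0.19 at day 4 (limma adjusted p = 0.00158).

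Zeb2 encodes the related repressor (chr2:44983632-45117395, minus strand). It was 2.41 and 3.88 in EpiLCs, 10.6 and 8.14 with DMSO and 2.80 and 5.08 with dTAG13 at day 2, and 4.73 and 5.78 with DMSO and 4.99 and 7.15 with dTAG13 at day 4. The DMSO libraries of day 2 were the highest of the experiment, and the dTAG13 libraries of that day overlapped the EpiLCs. The difference was -1.10 ± 0.30 at day 2 (limma adjusted p = 0.00658) and 0.17 ± 0.30 at day 4 (adjusted p = 0.690). Without DMSO replicate 1 the day 2 difference in Zeb2 was -0.93 with an adjusted p of 0.0808, and without dTAG13 replicate 1 it was -0.76 with an adjusted p of 0.109, the highest of 14 alternatives whose lowest was 0.00465. The Zeb2 exons share 3.3% of their bases with other genes, among them the antisense gene Zeb2os, and it is not stated whether reads were counted by strand. The same limit holds for Fn1, at 2.5% with Apol7d on the opposite strand. It also holds for Zeb1, at 1.9% with genes that include Gm10125 and Gm16147 on the opposite strand.

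Twist1 (chr12:33957671-33959829, plus strand) was 0.887 and 1.55 in EpiLCs, 1.13 and 0.814 with DMSO and 2.95 and 2.01 with dTAG13 at day 2, and 0.430 and 0.996 with DMSO and 1.03 and 3.18 with dTAG13 at day 4. The groups did not overlap on either day, at 4 to 20 reads per library. The difference was 0.81 ± 0.36 at day 2 (limma adjusted p = 0.0894) and 0.78 ± 0.36 at day 4 (limma adjusted p = 0.0863), so neither day was called. Twist1 passed the minimum mean of 1 through the dTAG13 libraries: over the EpiLC and DMSO libraries alone its mean was 0.968. Leaving out 1 library, its day 4 difference ran from 0.26 to 1.31. Without dTAG13 replicate 1, the day 4 difference in Twist1 was 1.31 with an adjusted p of 0.0149, and over 13 alternatives it ranged from 0.0149 to 0.655.

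Groups of 2 libraries did not overlap for 7 of the 10 members at day 2, where 67.9% of all tested genes did not overlap, and for 9 of the 10 at day 4, against 68.4% of all tested genes. The 4 members called on both days were Cdh1, Snai1, Fn1 and Zeb1. The share of all genes called on both days was not computed, where 33.6% were called at day 2 and 41.8% at day 4. With both days in a single comparison, 7 of 9 members were called (6 of 8 without Twist1, which passed the minimum mean through the dTAG13 libraries), where 52.1% of all genes were (19.6% higher and 32.5% lower). Of these, Cdh1 (0.57 ± 0.08), Cdh2 (0.76 ± 0.21), Vim (0.33 ± 0.10), Snai1 (1.30 ± 0.22) and Twist1 (0.80 ± 0.25) were higher, and Fn1 (-1.0 ± 0.08) and Zeb1 (-0.80 ± 0.13) were lower. Over both days Vim was no longer called without dTAG13 day 2 replicate 1 (adjusted p = 0.0553), and Twist1 with no filter on low values (0.0817) and without DMSO day 4 replicate 1 (0.0544) or dTAG13 day 4 replicate 2 (0.0937), while Zeb2 was called lower without dTAG13 day 2 replicate 2 (0.0234) or dTAG13 day 4 replicate 2 (0.0480). The median log2 fold change of all genes was -0.09 at day 2 and -0.13 at day 4 in the deposited scaling and -0.01 and -0.03 after median-ratio scaling; relative to the deposited median, the day 4 difference was 0.79 for Cdh1 and -0.26 for Epcam. Of all calls, 40.7% were higher at day 2 and 37.8% at day 4 as deposited, against 52.0% and 49.2% after median-ratio scaling. No member called in these 2 comparisons changed sign under either of the other scalings.

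Whether the dTAG13 effect itself differed between day 4 and day 2 was tested by an interaction term. With limma 0 of 9 members were called, where 1.25% of all genes were (0.771% higher and 0.482% lower), and edgeR and DESeq2 on recovered reads also called 0; the unadjusted p was under 0.05 for 3 members with limma, 3 with edgeR and 1 with DESeq2, and for 12.1%, 12.1% and 8.87% of all genes. With limma these were Zeb2, with a difference of effects of 1.26 ± 0.42 (limma adjusted p = 0.173), Epcam with -0.42 ± 0.18 (adjusted p = 0.339) and Cdh2 with -0.91 ± 0.42 (adjusted p = 0.378).

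**Figure D2:**
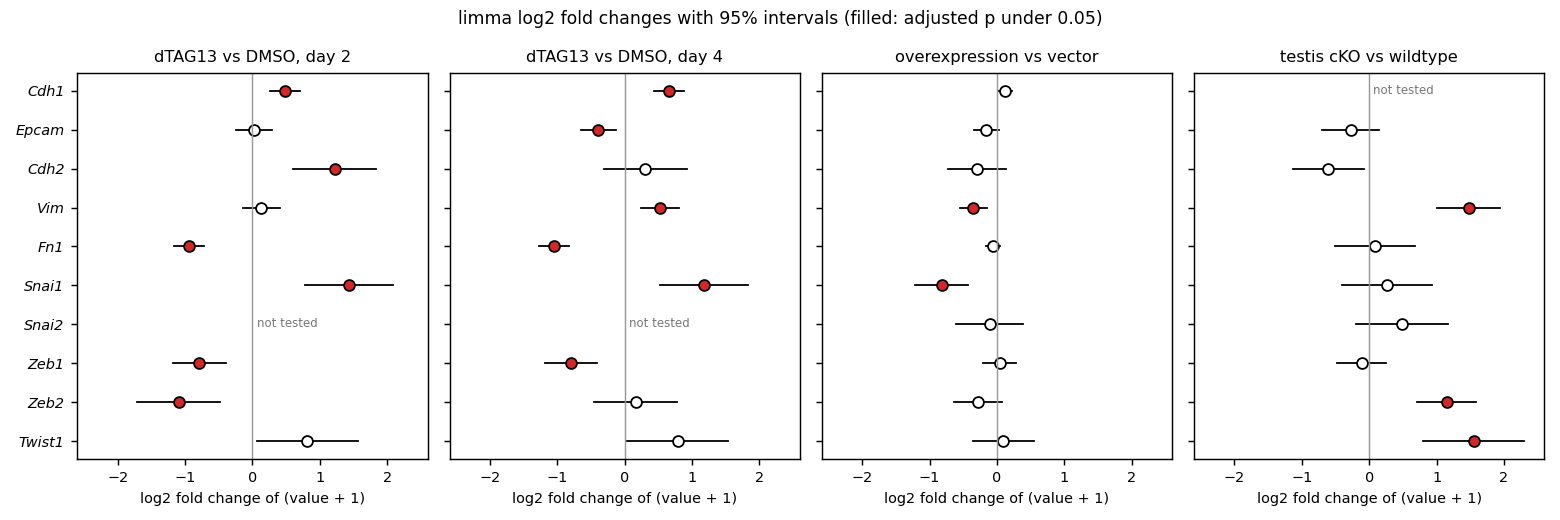
limma log2 fold changes of log2(value + 1) (horizontal axes) for the 10 genes (rows) in 4 comparisons, with bars for the 95% interval and filled points for an adjusted p under 0.05. Under dTAG13 Cdh1 and Snai1 lie to the right of 0 and Fn1 and Zeb1 to the left on both days, overexpression has Vim and Snai1 filled to the left, and the testis has Vim, Zeb2 and Twist1 filled to the right.

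The control course gives the background to these differences. From EpiLCs to DMSO at day 2, 7 of 9 tested members were called beside 26.2% of all genes (11.5% higher and 14.7% lower), and 6 of the 7 fell. Cdh2 fell by 2.67 ± 0.29, Snai1 by 1.34 ± 0.31, Vim by 1.07 ± 0.14, Epcam by 0.73 ± 0.13, Fn1 by 0.53 ± 0.11 and Cdh1 by 0.49 ± 0.11, and Zeb2 rose by 1.34 ± 0.30. The Cdh1 and Fn1 falls were not called after quantile normalization, at -0.16 and -0.21 with adjusted p of 0.271 and 0.194. In the authors' deposited table this step had a log2 fold change of -0.49 for Cdh1 (FDR 0.424) and -0.53 for Fn1 (FDR 0.841). That table had 5 of the 10 members under 0.05, beside 4.07% of all 53978 genes given an FDR and 12.4% of the 16605 with a mean of at least 1. From day 2 to day 4 with DMSO, Zeb1 alone was called, higher by 1.30 ± 0.19 (limma adjusted p = 1.04e-04), where 5.52% of all genes were called (2.44% higher and 3.08% lower). Fn1 was also called higher in that step without DMSO day 4 replicate 1 (0.40, adjusted p = 0.0155), and Vim without DMSO day 4 replicate 2 (0.58, adjusted p = 0.0285).

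With dTAG13, from EpiLCs to day 2, 5 of 9 members were called, all lower, beside 49.9% of all genes (20.3% higher and 29.7% lower); these comparisons share the EpiLC libraries with those for DMSO, and the dTAG13 day 2 libraries with those above. Fn1 fell by 1.48 ± 0.11, Cdh2 by 1.45 ± 0.29, Vim by 0.93 ± 0.14, Epcam by 0.71 ± 0.13 and Zeb1 by 0.63 ± 0.19. Cdh1 differed by -0.0014 ± 0.11 (95% interval -0.22 to 0.22) and Snai1 by 0.09 ± 0.31, and neither was called. After quantile normalization Cdh1 was called higher, by 0.45 (adjusted p = 0.000767). The Zeb1 fall was not called without EpiLC replicate 2 (adjusted p = 0.0572) or dTAG13 day 2 replicate 2 (0.0829), or with DESeq2 on recovered reads (0.0660). With no filter on low values Snai2 was called lower in that step, by limma (-1.05, adjusted p = 0.0327). From day 2 to day 4 with dTAG13, 4 of 9 were called, where 7.65% of all genes were (3.44% higher and 4.22% lower): Zeb1 rose by 1.29 ± 0.19 and Vim by 0.85 ± 0.14, and Cdh2 fell by 1.14 ± 0.29 and Epcam by 0.46 ± 0.13. The Cdh2 fall was not called without dTAG13 day 2 replicate 2 (-0.97, adjusted p = 0.145) or dTAG13 day 4 replicate 2 (-0.96, adjusted p = 0.157), or with no filter (0.0813). The Epcam fall was not called with no filter (0.106), without the trend (0.151) or without any one of the 4 dTAG13 libraries, with adjusted p between 0.0700 and 0.220.

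Related genes were read from 3 lists, chosen with earlier results of these data known. In the list of 43 epithelial junction genes, all tested, 17 were higher and 3 lower with dTAG13 at day 2, beside 13.7% up and 19.9% down among all genes, and 24 higher and 4 lower at day 4, beside 15.8% up and 26% down. The list's median log2 fold change was 0.24 at day 2 and 0.41 at day 4. Among those that rose most over both days were the simple-epithelium keratins Krt19 (3.09 and 3.18), Krt18 (2.13 and 2.88) and Krt8 (2.61 and 2.15) and the hemidesmosome integrin Itgb4 (3.14 and 2.84). Krt19 read 27.8 and 39.1 with dTAG13 against 2.77 and 3.257 with DMSO at day 2. Esrp1, a splicing factor of epithelial cells, fell by 0.57 and 0.87, and the desmosomal cadherin Dsg2 fell by 0.51 and 0.56.

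In the list of mesenchymal and matrix genes, 38 were in the table and 27 passed the minimum mean. Of the 27, 16 were higher and 3 lower at day 2 (13.7% up and 19.9% down among all genes), and 18 higher and 4 lower at day 4 (15.8% up and 26% down), with medians of 0.88 and 0.98. Of the 27, only Cd44 owed its pass to the dTAG13 libraries (mean 0.713 over the EpiLC and DMSO libraries); without it the counts among 26 genes were the same and the medians were 0.97 and 1.03. The largest rises were in the matricellular genes Ccn1 (2.91 and 4.36) and Ccn2 (1.98 and 3.37), the matrix proteoglycan Vcan (2.98 and 3.61), the receptor kinase Axl (2.76 and 3.21) and the actin-binding Tagln (1.56 and 4.32). Vcan read 488 and 513 with dTAG13 against 61.6 and 63.1 with DMSO at day 2. Ccn1, Ccn2 and Axl are known targets of the Hippo pathway co-activators. The E-protein genes Tcf4 (-0.87 and -0.97) and Tcf3 (-0.39 and -0.73) and the fibronectin receptor subunit Itga5 (-0.57 and -0.54) fell. The list's Bgn, Cdh11, Lox, Postn, Prrx1, S100a4, Tnc and Twist2 were below 1 in every library of all 5 groups.

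TGF-beta family signalling is a common inducer of the transition. Of the 20 genes tested on that list, 7 were higher and 7 lower at day 2 (13.7% up and 19.9% down among all genes) and 9 higher and 7 lower at day 4 (15.8% up and 26% down). Without Tgfb2, which passed the minimum mean through the dTAG13 libraries, 8 were higher and 7 lower at day 4. The receptors Tgfbr3 (1.61 and 2.04) and Tgfbr2 (1.82 and 1.09), the activin antagonist Fst (1.25 and 1.25), the ligand Nodal (0.76 and 0.81) and the signal transducer Smad3 (0.54 and 0.73) rose. The Nodal antagonists Lefty2 (-2.16 and -3.19) and Lefty1 (-2.10 and -2.85), the activin subunit Inhbb (-2.22 and -2.15), the Nodal co-receptor Tdgf1 (-1.04 and -1.21) and the receptor Acvr2b (-0.72 and -0.77) fell.

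**Figure D3:**
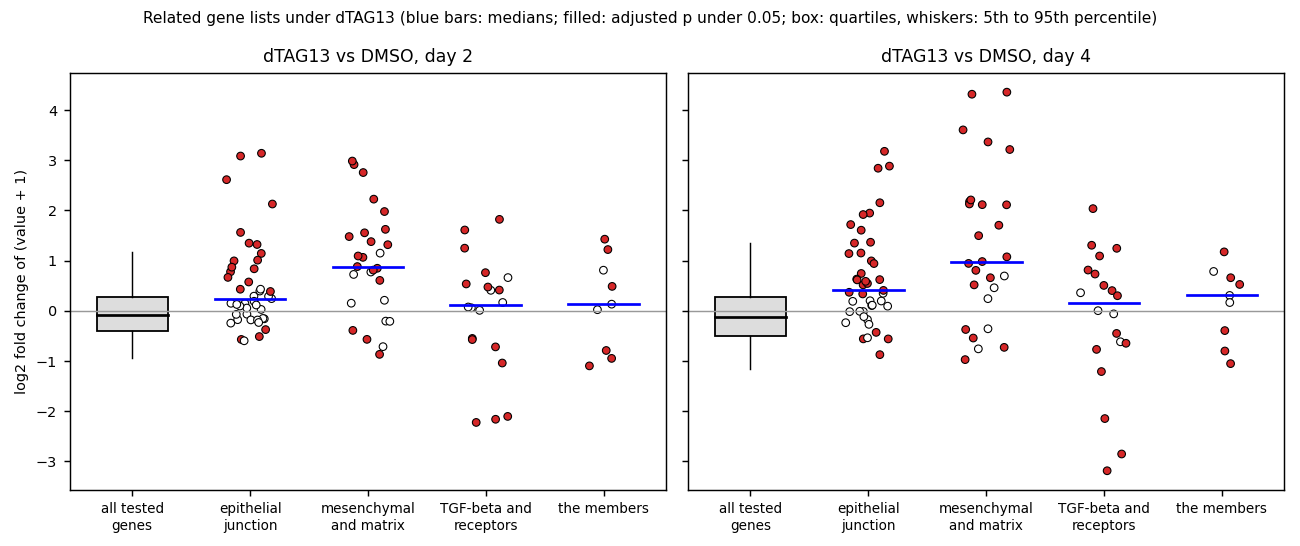
limma log2 fold changes of log2(value + 1) between dTAG13 and DMSO at day 2 and day 4 (vertical axis) for all tested genes (box of quartiles with whiskers from the 5th to the 95th percentile), for 3 related lists and for the 9 tested members (points, filled where the adjusted p was under 0.05; blue bars are medians). Medians of the epithelial list (0.24 and 0.41) and of the mesenchymal list (0.88 and 0.98, or 0.97 and 1.03 without Cd44) are both above 0, and those of all genes (-0.09 and -0.13) are below.

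Markers of other cell types moved with dTAG13 beside these genes, and their part in the results was not tested. Among all genes 13.7% were higher and 19.9% lower at day 2, and 15.8% and 26% at day 4. The summed PGCLC list was 367 to 394 with dTAG13 against 683 to 707 with DMSO at day 2 and 435 to 471 against 789 to 1010 at day 4, with 5 of 10 called lower and 2 higher on each day. The summed trophoblast list was 66.4 to 83.3 against 23.9 to 28.6 at day 2 and 59.2 to 87.4 against 21.9 to 22.8 at day 4, with 4 and 5 of 6 tested genes higher, while its defining genes Elf5 and Tpbpa were below 1 in every library. The list of contractile and vascular genes, drawn up for peritubular cells of the testis, shares Acta2, Cnn1 and Tagln with the mesenchymal list. It summed to 188 to 197 against 109 to 114 at day 2 and 245 to 290 against 109 to 116 at day 4, with 4 and 5 of 7 higher. The summed fibroblast list stayed low, at 9.01 to 10.6 against 4.15 to 4.21 at day 2 and 7.31 to 8.07 against 3.33 to 5.87 at day 4, with 1 of 4 tested genes higher on each day. Of the streak mesoderm list 1 of 4 tested genes was higher and none lower on each day, with T, Gsc, Foxf1 and Msgn1 below 1 throughout, and of the endoderm list 1 of 3 was higher on each day and 1 lower at day 2. The neural list summed to 242 to 251 against 109 to 110 at day 2 and 165 to 197 against 102 to 127 at day 4, with 1 of 4 tested genes higher on each day, and 3 and 2 lower. The EpiLC list was 266 to 279 against 285 to 328 at day 2, with 1 of 7 higher and 2 lower, and 164 to 167 against 177 to 194 at day 4, with 2 higher and 1 lower. Fut4 of the PGCLC list, Cdx2 of the trophoblast list, Gata6 of the endoderm list and Col1a1 of the fibroblast list passed the minimum mean only through the dTAG13 libraries. Without them, on each day 1 of 9 PGCLC genes was higher and 5 lower, 4 of 5 trophoblast genes were higher, and 0 of 2 endoderm genes and 0 of 3 fibroblast genes were higher. In bulk RNA, more cells of a type and more RNA per cell cannot be told apart.

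For 4 members, Cdh1, Cdh2, Vim and Snai1, likeness was measured to every gene of mean 5 or more and a log2 range of at least 1 over the 10 libraries of the depletion experiment (5915 genes), by Pearson's r, as a description with no test; the points share their libraries and groups. The genes most like Cdh1 were Mfap3l (0.977), Slc29a4 (0.975) and Sqstm1 (0.970). The profile of Cdh2 was most like those of Mycl (0.979), Nefl (0.977) and Axin2 (0.977), and that of Vim most like Mapk4 (0.966), Steap2 (0.905) and Egln1 (0.903). Snai1 was most like Nefm (0.975), Zfp125 (0.972) and Xist (0.970), the X-inactivation RNA, which read 250 and 253 with dTAG13 against 5.41 and 5.02 with DMSO at day 2, 94.2 and 115 against 1.72 and 2.99 at day 4, and 129 and 138 in EpiLCs.

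Overexpression of Tex10 asks the opposite question. Over all 4 stages 2 of 10 members were called, both lower in the clones, while 8.76% of all 15255 tested genes passed (4.54% up, 4.22% down). The 8 clone libraries are 2 clones at 4 stages, set against a single vector line at the same stages, and the fit treats libraries of 1 line as independent. Overexpression and a difference peculiar to the single vector line therefore cannot be told apart, and the p-values below measure the spread between these libraries. The clones carried Tex10 values of 330 to 654 against 145 to 213 in the empty-vector line. Snai1 was 9.16, 3.74, 8.43 and 5.12 in the empty-vector line at the EpiLC stage and on days 2, 4 and 6. In the same order it was 4.03, 2.31, 3.01 and 2.12 in clone 1 and 4.94, 1.51, 6.35 and 2.62 in clone 2. Each clone library was below the vector library of its stage, and the difference was -0.82 ± 0.19 (limma adjusted p = 0.00630, lower in 8 of 8 clone libraries). That p ranged from 0.00314 to 0.0620 over 19 alternatives, and it missed the threshold with no filter on low values.

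Vim was 108, 72.4, 145 and 244 in the empty-vector line over the same stages, 108, 32.2, 122 and 229 in clone 1, and 107, 35.1, 132 and 221 in clone 2. The clones were lower in 8 of 8 libraries, by far the most at day 2. The difference was -0.35 ± 0.10 (limma adjusted p = 0.0215), and without the day 2 empty-vector library it was -0.11 with an adjusted p of 0.407, and without the day 2 library of clone 1 or clone 2 its adjusted p was 0.0516 or 0.0536; it also missed the threshold with no filter, without the trend and with DESeq2. Over 20 alternatives its p ranged from 0.00180 to 0.407. Within the PGCLC days, Vim (-0.46 ± 0.10) and Snai1 (-0.79 ± 0.24) were called, beside 9.12% of all genes (4.9% higher and 4.23% lower). There Vim was not called without the day 2 empty-vector library (-0.15, adjusted p = 0.280), where Epcam was called instead (-0.43, adjusted p = 0.0103). Snai1 was not called without the empty-vector library of day 2, day 4 or day 6, clone 1 of day 4 or day 6, or clone 2 of day 2, with adjusted p between 0.0573 and 0.161. Snai1 over the PGCLC days was also not called with pseudocount 0.1 (0.0501), no filter (0.203), quantile normalization (0.0556), no trend (0.0934) or DESeq2 (0.0563), and Vim was not called with no filter (0.341), no trend (0.213) or DESeq2 (0.127).

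The other 8 members were not called over all stages. Cdh1 was 895, 726, 533 and 375 in the empty-vector line, 971, 835, 523 and 419 in clone 1, and 991, 878, 506 and 415 in clone 2, which is higher in 6 of 8 clone libraries (0.12 ± 0.05, limma adjusted p = 0.149); without the day 4 empty-vector library Cdh1 was called (0.17, adjusted p = 0.0470). Fn1 was 386, 563, 624 and 611 in the vector line, 428, 547, 556 and 589 in clone 1, and 418, 510, 534 and 564 in clone 2 (-0.06 ± 0.05, limma adjusted p = 0.550). Epcam was 89.4, 87.3, 64.4 and 61.6 in the vector line, 95.3, 89.5, 60.8 and 35.8 in clone 1, and 94.1, 104, 53.8 and 39.5 in clone 2, so that both clones were above the vector line at the EpiLC stage and day 2 and below it at days 4 and 6. For Cdh2, Snai2, Zeb1, Zeb2 and Twist1 the differences over all stages ran from -0.29 to 0.09, with standard errors of 0.12 to 0.24. Beside 4.54% up and 4.22% down among all genes, 1 of 42 tested epithelial genes was higher (Dsg2, 0.29) and 4 were lower (among them Krt19, -0.999, Esrp1, -0.37, and Dsp, -0.32), 2 of 30 mesenchymal genes were lower (Tagln, -0.68, and Itgav, -0.29), and 1 of 20 TGF-beta genes was lower (Skil, -0.19). Of the marker lists, 2 of 10 PGCLC genes were higher. Lower were 2 of 7 EpiLC, 2 of 5 neural, 1 of 6 streak mesoderm, 1 of 3 endoderm, 1 of 4 trophoblast and 1 of 6 peritubular and vascular genes. In the fibroblast list 0 of 4 tested genes were called, and the part of these markers in the results was not tested.

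**Figure D4:**
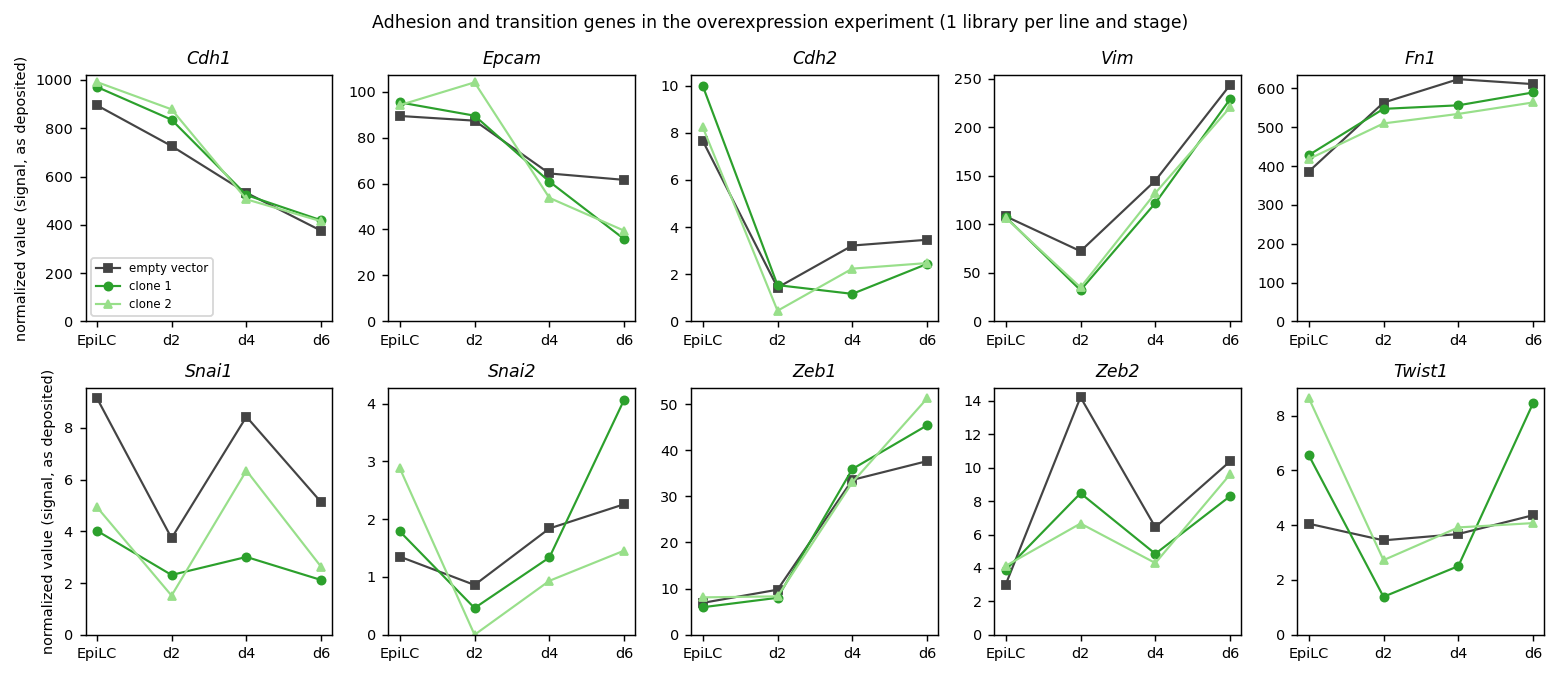
Normalized values (vertical axes, linear from 0, a separate scale for each gene) over EpiLC, day 2, day 4 and day 6 in the empty-vector line (squares) and Tex10 overexpression clones 1 and 2 (circles and triangles), with 1 library per point. Snai1 in the clones lies below the vector line at each stage, Vim in the clones lies furthest below it at day 2, and Zeb1 in the clones lies below it at day 2 and above it at day 6.

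The steps between stages were also read over the empty-vector line and the 2 overexpression clones together, which is not a control course, with a later time and with the line as a covariate. From EpiLCs to day 2, 8 of 10 members were called beside 46.3% of all genes (24.1% higher and 22.1% lower). Cdh2 fell by 2.20 ± 0.29, Vim by 1.29 ± 0.13, Snai2 by 1.08 ± 0.32, Twist1 by 1.07 ± 0.30, Snai1 by 0.98 ± 0.26 and Cdh1 by 0.23 ± 0.07, and Zeb2 rose by 1.16 ± 0.24 and Fn1 by 0.40 ± 0.07. The Cdh1 fall was not called after quantile normalization (-0.05, adjusted p = 0.564) or without the mean-variance trend (adjusted p = 0.0728). From day 2 to day 4, 6 of 10 were called beside 23% of all genes (11.1% higher and 11.9% lower): Zeb1 rose by 1.86 ± 0.16, Vim by 1.59 ± 0.13 and Snai1 by 0.94 ± 0.26, and Zeb2 fell by 0.75 ± 0.24 and Cdh1 and Epcam each by 0.64, with standard errors of 0.07 and 0.13. From day 4 to day 6, 3 of 10 were called beside 6.88% of all genes (3.49% higher and 3.38% lower), with Vim higher by 0.79 ± 0.13 and Epcam and Cdh1 lower by 0.42 and 0.37. Cdh1 thus fell and Vim rose at each step after day 2, while Cdh2 stayed at 0.454 to 3.46 from day 2 on, below the 7.66 to 9.99 of EpiLCs. The Zeb2 fall from day 2 to day 4 was -0.51 without the day 2 empty-vector library, with an adjusted p of 0.190 in a range of 0.0164 to 0.190 over 15 alternatives, and it was also not called with no filter (0.0940), without clone 1 of day 2 or without either clone of day 4. The Snai1 rise was not called with no filter (0.0601) or without the line as a covariate (0.0729). Other calls lost with 1 library were the Snai2 fall to day 2 without clone 2 of either stage (adjusted p of 0.133 and 0.0571), the Twist1 fall without clone 1 of day 2 (0.0693), the Snai1 rise to day 4 without clone 2 of either stage (0.0853 and 0.0968), and the Epcam fall to day 6 without the day 4 vector library or any clone library of days 4 and 6 (0.0502 to 0.362). The Epcam fall was also not called with edgeR (0.0763), with DESeq2 (0.104), with pseudocount 0.1 (0.0573), with no filter (0.198) or without the line covariate (0.135), and without the trend none of the 3 calls of that step was made. Calls were gained for the Zeb2 rise to day 6 after median-ratio scaling (0.77, adjusted p = 0.0488) and quantile normalization (0.78, adjusted p = 0.04998). The Snai2 rise to day 4 was called with pseudocount 0.1 (1.91, adjusted p = 0.0346).

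In the testis, 3 of 9 members were called, all higher in the knockout, while 29.1% of 20658 tested genes passed (16.1% up, 13.1% down). Tex10 was 29.8 and 27.3 in the knockout against 79.1 and 44.1 in wildtype. Vim, abundant in Sertoli cells and other somatic cells of the testis, was 147 and 96.3 in the knockout against 54.1 and 32.6 (1.48 ± 0.22, limma adjusted p = 3.64e-04), and it missed the threshold without the mean-variance trend (adjusted p = 0.0507). Zeb2 was 35.9 and 26.6 against 12.2 and 14.8 (1.15 ± 0.20, limma adjusted p = 0.00119). Twist1 was 6.41 and 6.23 against 2.23 and 0.942 (1.55 ± 0.35, limma adjusted p = 0.00486). The groups did not overlap for 7 of 9 members, where 66.3% of all tested genes did not overlap.

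The remaining 6 members were not called in the testis. Cdh2, found in Sertoli and germ cells, was 14.3 and 12.5 in the knockout against 27.4 and 15.9 (-0.61 ± 0.24, limma adjusted p = 0.0775), and without wildtype replicate 2 it was -0.98 with an adjusted p of 0.00479, after quantile normalization -0.79 with 0.0379, and with the replicate number as a block -0.61 with 0.0276; its p ranged from 0.00479 to 0.554 over 13 alternatives. Epcam, a surface protein of spermatogonia, was 20.3 and 24.7 against 32.2 and 23.1 (-0.27 ± 0.20). Fn1 was 6.69 and 7.75 against 5.99 and 7.53, Zeb1 24.5 and 23.9 against 27.2 and 25.3, Snai1 4.88 and 4.32 against 3.25 and 4.08, and Snai2 9.47 and 5.21 against 5.14 and 4.39.

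Somatic markers rose with these genes in the knockout testis, and their part in the Vim, Zeb2 and Twist1 results was not tested. Among all genes 16.1% were called higher and 13.1% lower. All 10 Sertoli genes were called higher, with summed values of 1611 and 1896 against 563 and 624, and all 8 Leydig genes, with 789 and 1362 against 326 and 430. Of the macrophage genes 4 of 6 tested were higher (96.3 and 148 against 52.3 and 59.6, as lowest and highest sums), of the fibroblast genes 5 of 8 (87.4 and 132 against 37.2 and 38.7), and of the peritubular and vascular genes 3 of 9, with 1 lower (79.1 and 90.7 against 46.6 and 56.5). The germ cell list summed to 7534 and 8007 in the knockout and 9807 and 11770 in wildtype, with 2 of 10 higher and 3 lower. Of the related lists, beside the same all-gene shares, 17 of 31 tested mesenchymal genes were higher (Itgav 1.82, Cnn2 1.69 and Sparc 1.51 the most) and 1 lower (Tnc, -0.94), 9 of 31 epithelial genes were higher (Pard6b 1.67, Lsr 1.45 and F11r 1.44) and 4 lower (among them Ovol2, -0.73, Jup, -0.61, and Patj, -0.59), and 8 of 16 TGF-beta genes were higher (Tgfb1 1.55, Smad3 1.42 and Inhbb 1.04).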

How the data were processed

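RNA was extracted with Trizol, per the labels' protocols, and libraries were made with the NuGEN Ovation Mouse RNA-seq kit for the depletion and testis samples and the TECAN Universal Plus mRNA-Seq kit for the overexpression samples. Per the submitters' processing notes, which give no role or order, the tools were Bowtie2 2.3.4.3, SAMtools 1.9, HTSeq 0.11.2 and edgeR 3.26.8 on mm10. The authors deposited 1 table per experiment with a normalized signal for each gene and library, TMM-scaled by the name it was deposited under. The log2 fold changes and the p-values (with FDR) of the authors' own comparisons were deposited beside them, per the file headers, and their test is not given in the sources used here.

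The signal steps by whole multiples of 1 value per library. Whole reads were recovered in 100% of values within 0.01 of a read, and library sizes are those sums; 1 library (day 4 DMSO replicate 2) has a step near 0.1 that rounding could also give. limma 3.58.1 with a mean-variance trend (R 4.3.3) was run on log2(value + 1) of genes with a mean of at least 1 in each table, with the groups of a table in 1 fit, and p-values adjusted over all genes in each of 14 comparisons. Stage comparisons over the empty-vector line and both clones had the line as a covariate. Tables were normalized separately and were not tested against each other. The code for the day 2 comparison of dTAG13 with DMSO was run on simulated counts. Changes were set only in genes with more reads on average than Snai1, Snai2 and Twist1 had. That run checks the code and not the calls given here. edgeR 4.0.16 and DESeq2 1.42.0 on recovered reads, other pseudocounts, filters and scalings, a replicate block and leaving out each library were alternatives. Same-numbered libraries form only 2 pairs per comparison, so the numbers were not taken as pairs.

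Gene positions and exon lengths are from GENCODE on GRCm38, promoters from RefSeq. The members, the 3 related lists and the 12 marker lists were chosen with earlier results of these data known. Named list genes are, for dTAG13, up to 5 per list and direction called on both days in the same direction, by mean size of change; for the other experiments, up to 3. A gene that this rule names is not reported here. Genes named for likeness are the 3 highest by Pearson's r. Of the marker lists, those for testis cell types are given for the testis, and those for embryonic cell types for the depletion and overexpression experiments. The fibroblast list and the peritubular and vascular list are given for each experiment.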

Additional observations from a re-analysis of the deposited data

Results flagged for a closer look

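In 11 cases the members moved in opposite directions in 2 groups under the same contrast. None of these differences was tested, and groups of 1 or 2 libraries allowed no check for a library far from the others. The share of all genes that meet the same rules was not computed, so the counts show nothing particular to the members. In the 8 cases that set the clones against the vector line, the control is 1 empty-vector library per stage. In 8 of the cases both overexpression clones were above the empty-vector line at 1 stage and below it at another, and the value is the difference of their mean log2(value + 1) differences from the vector line. For Cdh1, higher at day 2 and lower at day 4, it was 0.29, with a mean difference at day 4 of only -0.05. Epcam, higher at day 2 and lower at day 6, gave 0.84. Cdh2 and Fn1 were higher in EpiLCs and lower at day 4, by 0.89 and 0.33. Snai2, Zeb2 and Twist1 were higher in EpiLCs and lower at day 2, by 1.11, 1.16 and 1.33. Zeb1 was higher at day 6 and lower at day 2, by 0.58. Snai2 is at or below the limit of 3 reads in both clones at day 2, and Cdh2 rested on 7 reads in clone 1 at day 4.

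In the other 3 cases a step between stages went down in the DMSO libraries and up in 3 of 3 lines of the overexpression experiment, which are 1 empty-vector line and 2 overexpression clones. Fn1 from EpiLC to day 2 differed by 0.93, Snai1 from day 2 to day 4 by 1.24, and Snai2 from day 2 to day 4 by 1.25 on the log2(value + 1) scale. For Snai1 the DMSO libraries summed to 9 reads at day 2 and 6 at day 4, and for Snai2 to 12 and 5. Neither DMSO fall was called: Snai1 differed by -0.30, and Snai2 with no filter by -0.51 (limma adjusted p = 0.750). At so few reads these 2 falls cannot be told from counting error. The tables were normalized separately and the library kits differ, so experiment and kit cannot be told apart.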

How the results depend on the processing

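Of 1953 alternative values of single members, 1802 kept their direction and their side of the threshold, 79 lost a call, 14 gained one and 58 changed direction. Of the 58, 57 were called neither as reported nor under the alternative, and Cdh1 from EpiLC to dTAG13 day 2 (-0.0014 and not called) was called at 0.45 after quantile normalization. The cause was not tested.

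The other changes of direction under a setting were these. The difference in the dTAG13 effect between days was -0.25 for Snai1, -0.01 for Zeb1 and -0.03 for Twist1. With pseudocount 0.1 these were 0.22, 0.034 and 0.078, with edgeR 0.12, 0.061 and 0.22, and with DESeq2 0.16, 0.057 and 0.23. That of Zeb1 was 0.022 after median-ratio scaling and 0.12 after quantile normalization. From EpiLC to dTAG13 day 2, Cdh1 was 0.10 after median-ratio scaling and 0.13 with edgeR and with DESeq2, and Snai1 -0.095 after quantile normalization. After quantile normalization Cdh1 from day 2 to day 4 with dTAG13 was -0.025 and Fn1 in the testis -0.11. Epcam from EpiLC to day 2 over the 3 lines was -0.019 after median-ratio scaling and -0.017 with DESeq2.

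Leaving out 1 library, directions changed within these ranges. For dTAG13 against DMSO, Epcam at day 2 ran from -0.090 to 0.14, Vim at day 2 from -0.035 to 0.30 and Zeb2 at day 4 from -0.057 to 0.39. The difference between days ran from -0.15 to 0.13 for Zeb1, -0.55 to 0.50 for Twist1 and -0.23 to 0.019 for Fn1. The DMSO steps ran from -0.38 to 0.059 for Twist1 to day 2, and from -0.15 to 0.073 for Epcam and -0.46 to 0.021 for Twist1 to day 4. The dTAG13 steps ran from -0.10 to 0.58 for Zeb2, -0.10 to 0.097 for Cdh1 and -0.14 to 0.32 for Snai1 to day 2, and from -0.072 to 0.12 for Cdh1 and -0.77 to 0.28 for Twist1 to day 4. Overexpression over all stages ran from -0.13 to 0.32 for Twist1, -0.31 to 0.061 for Snai2, -0.26 to 0.019 for Epcam and -0.062 to 0.13 for Zeb1, and over the PGCLC days from -0.37 to 0.10 for Twist1 and -0.10 to 0.19 for Zeb1. Over the 3 lines Epcam to day 2 ran from -0.12 to 0.14 and Cdh2 from day 4 to day 6 from -0.033 to 0.45, and Fn1 in the testis from -0.057 to 0.23.

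The count of called members was within 1.5 times its value under most alternatives, with these exceptions. Over both days it was 4 in place of 7 with a mean of at least 5, and the DMSO step from day 2 to day 4 gave 2 in place of 1; that filter leaves fewer members to test. The dTAG13 step from day 2 to day 4 gave 2 in place of 4 with no filter. For overexpression over all stages, 2 became 0 with no filter (3 members at an unadjusted limma p under 0.05, and 14.5% of all genes), 1 with a mean of at least 5, 1 without the mean-variance trend and 1 with DESeq2, and stayed 2 with edgeR. For its PGCLC days, 2 became 1 with pseudocount 0.1, a mean of at least 5 or quantile normalization, and 0 with no filter (4 at an unadjusted p under 0.05, and 14.2% of all genes), without the trend (4, and 19.1%) or with DESeq2 (5, and 18.6%), while edgeR gave 2. From EpiLC to day 2 over the 3 lines of the overexpression experiment, 8 became 4 with a mean of at least 5, and from day 4 to day 6, 3 became 0 without the trend (6 at an unadjusted p under 0.05, and 18.4% of all genes).

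Leaving out 1 library gave 5 to 6 members called at day 2, 4 to 7 at day 4, 6 to 8 over both days and 0 in each fit for the difference between days. The DMSO step from day 2 to day 4 gave 1 to 2, the dTAG13 step 2 to 3, overexpression 1 to 3 over all stages and 1 to 2 over the PGCLC days, and the testis 3 to 4. The share of all genes called in each of these fits is not given here, so these ranges show nothing particular to the members.

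The replicate numbers form 2 pairs per comparison and the correlation of deviations of same-numbered libraries ran from -0.069 to 0.118, so they were treated as names. With the replicate number as a block, 6 members were called at day 2, 6 at day 4, 7 over both days and 0 for the difference between days. In the testis 4 were called, where Cdh2 was added (adjusted p = 0.0276). Testis genes with an unadjusted limma p under 0.05 also rose with the block, from 8370 to 9071 of 20658. The added Cdh2 call therefore cannot be read alone. For dTAG13 against DMSO such genes went from 7115 to 7089 at day 2, from 8178 to 8135 at day 4 and from 9503 to 9468 over both days. Without the line as a covariate the 3 lines gave 8, 5 and 2 called members in their 3 steps. Genes with an unadjusted limma p under 0.05 in these steps were 7492, 4702 and 2612 of 15255, against 7962, 5313 and 3145 with the covariate. The share of all genes called after adjustment is not given for the block or without the covariate. These member counts therefore show nothing particular to the members.

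Depth limits Cdh2, Snai1, Snai2 and Twist1 most, with fewer than 10 reads in some libraries. Single stages of the overexpression experiment were not tested here. The authors' deposited table does compare the clones with the vector line at each stage, with 1 vector library per stage. Among its log2 fold changes were -1.10 for Vim and 0.24 for Cdh1 at day 2, and -0.71 for Epcam at day 6.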
